A study of Ovis aries with 9 samples.

Results

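The energy-sensing genes described here are 10 genes of the AMPK and mTORC1 system in cultured sheep granulosa cells (GCs). They comprise the AMPK subunit genes PRKAA1, PRKAA2, PRKAB1 and PRKAG1, the AMPK-activating kinase gene STK11, the tuberous sclerosis complex genes TSC1 and TSC2, and RHEB, MTOR and RPTOR of the mTORC1 branch. They were taken by gene symbol from the table of expression per gene. Each symbol had 1 row, so the group was 10 of 39157 genes, and all 10 were among the 25530 genes that passed the filter on low values, which asked for an FPKM of 0.1 in 3 or more libraries.

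GCs surround the oocyte and line the ovarian follicle. They were obtained from follicles 3 to 5 mm across of thin-tailed Han ewes aged 1 year per the labels, and the follicle suspensions of many ovaries were pooled before culture. The cells grew for 48 h with serum. The paper also describes seeding them into treatment plates and growing them with serum to a set confluence. The cells were then kept for 8 h without glucose and serum, a step shared by every group including the controls. For the next 24 h they received 0 mM glucose (CON), 8.4 mM glucose (LOW) or 33.6 mM glucose (HIGH), and RNA depleted of ribosomal RNA was sequenced in 3 libraries per group. The labels do not say that the libraries of a group came from separate cultures, so p-values measure the spread between these libraries, which may be technical. No genetic change is given for any group. FPKM counts fragments per kilobase of gene relative to the library total, so levels can be compared between genes. Libraries were brought to a common median over the genes that reached an FPKM of 1 in all 9 of them.

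AMPK is a kinase of 3 kinds of subunit. The alpha subunit (PRKAA1, PRKAA2) carries the catalytic site, the beta subunit (PRKAB1) is the scaffold that also binds glycogen, and the gamma subunit (PRKAG1) binds AMP, ADP and ATP and so reads the energy state of the cell. LKB1, the product of STK11, phosphorylates and activates the alpha subunit. Active AMPK phosphorylates TSC2 and raptor, the product of RPTOR. TSC1 and TSC2 together turn off the small GTPase RHEB, which otherwise switches on the kinase MTOR in mTORC1, where raptor recruits the substrates. mTORC1 drives protein synthesis and holds back autophagy when nutrients are plentiful. In GCs both kinases are known to take part in the control of proliferation and steroid synthesis. Much of this control acts on proteins by phosphorylation, which RNA sequencing does not measure.

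An FPKM of 1 stood for between 48.0 and 71.3 fragments per kilobase across libraries. CON replicate 1 and HIGH replicates 1 and 2 stood apart. They had the most genes with FPKM of 0.1 or more (24981, 24582 and 24156, against 21121 to 23428 in the others). CON replicate 3 had the fewest (21121). Annotated small RNA genes took 52.1%, 30.3% and 50.7% of the summed FPKM of those that stood apart, against 64.8% to 72.1% in the others. Assembled loci took 42.4% and 19.6% in HIGH replicates 1 and 2, against 4.17% to 9.71% elsewhere, with CON replicate 1 at 9.71%. Refits without the libraries that stood apart kept CON replicate 3 and left HIGH replicate 3 as the only HIGH library. Of 15 GC markers 10 were in the table and 7 had a mean FPKM of 1 or more. The 10 summed to 243 to 265 in all 9 libraries, most of it CDH2 (mean 146) and GJA1 (mean 50.7). INHA, INHBA, NR5A1, NR5A2 and FST had means between 4.67 and 16.6. The defining FSH receptor gene FSHR lay between 0.228 and 0.577, and AMHR2 and HSD17B1 had means of 0.62 and 0.39. The steady sum therefore mainly reflects CDH2 and GJA1. The stromal list was higher, at 2609 to 3133 for 7 of 7 genes, most of it LUM (mean 2036). The smooth muscle list reached 1770 to 4013 for 5 of 5 genes, most of it TAGLN (mean 1848) and ACTA2 (mean 847). The endothelial marker CDH5 and the oocyte marker BMP15 were listed at 0, but endothelial TEK lay at 0.531 to 0.978 and oocyte GDF9 at 0.532 to 0.871. Of the 5 endothelial and 4 oocyte genes in the table, 0 reached a mean FPKM of 1. Of 6 immune genes 2 did (CD68 at 10.05 and CD14 at 6.79), and of 3 epithelial genes 1 did (KRT8 at 11.07). In these bulk libraries, fewer cells of a type and less RNA per cell cannot be told apart.

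None of the 10 genes was called different in any comparison at an adjusted p under 0.05 and a log2 fold change beyond 1 (limma over all genes). The same rule called 0.00783% of all genes in LOW against CON, 0.00783% in HIGH against CON and 0.00783% in HIGH against LOW. A test for any difference among the 3 groups also called 0 of the 10 genes, against 0.0118% of all genes. The genes were expressed throughout, and between 33.6 mM and 8.4 mM glucose the largest fitted differences were those of TSC2 and MTOR, while STK11 had the smallest unadjusted p. Expression spanned an order of magnitude. Mean FPKM over the 9 libraries was 47.9 for RHEB, 16.9 for TSC1, 13.9 for PRKAG1, 13.5 for PRKAB1, 10.7 for MTOR, 8.66 for PRKAA1, 7.02 for STK11, 4.34 for TSC2, 3.50 for RPTOR and 2.89 for PRKAA2. Only RHEB, whose lowest library was at 34.1, lay clear of its neighbour in this order, since TSC1 reached at most 25.3. Every other neighbouring pair overlapped between libraries. RHEB stood at the 95.6th percentile of tested genes by mean FPKM and PRKAA2 at the 60.9th.

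**Figure D1:**
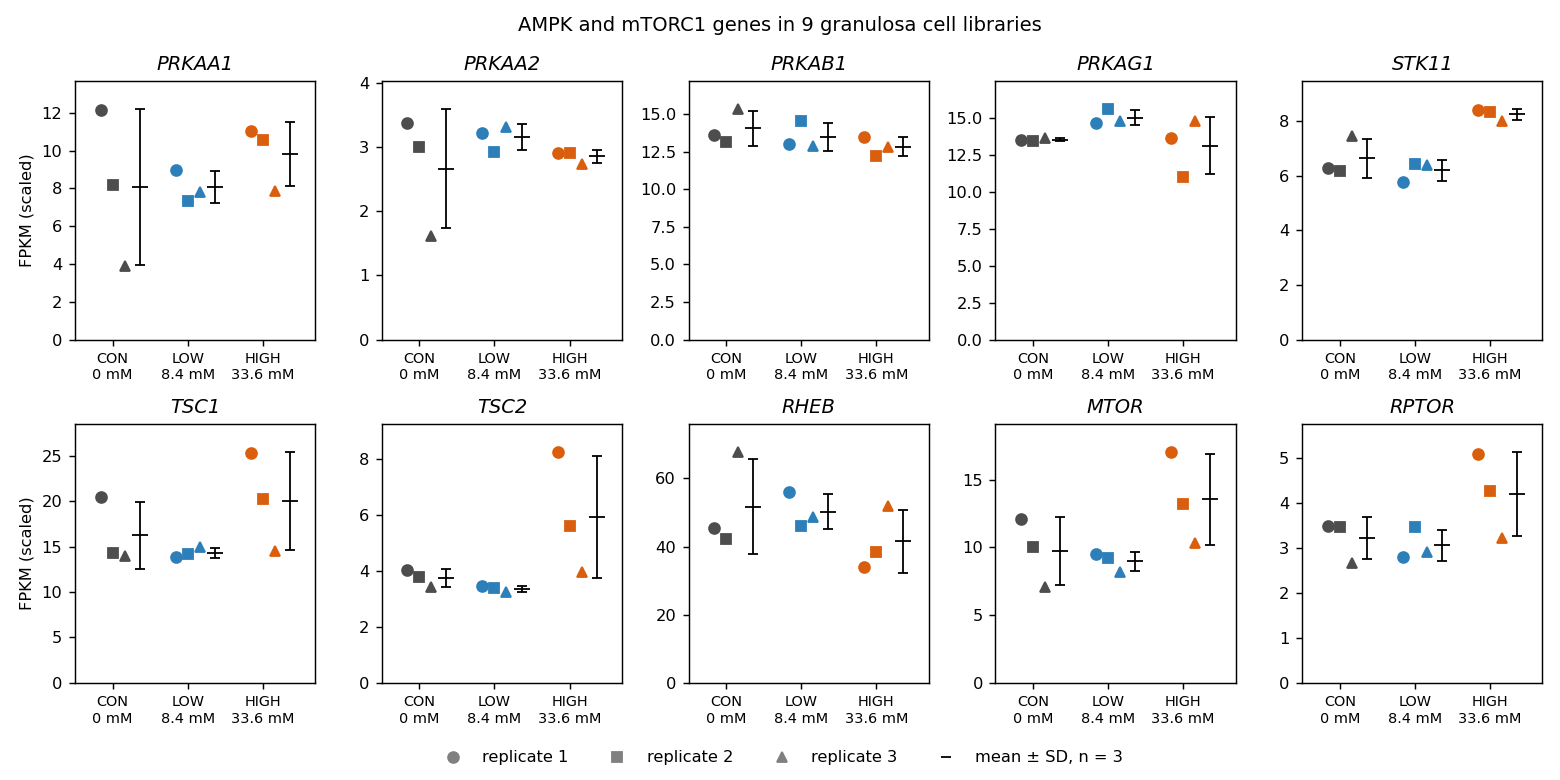
Scaled FPKM (vertical axes, from 0) of the 10 genes in the CON, LOW and HIGH libraries; each point is a library, its shape gives the replicate number, and the bar beside each group is the mean ± SD of 3 libraries. STK11 is the gene whose 3 HIGH libraries (8.01 to 8.39) lie above all 6 others (5.76 to 7.45), and PRKAA1 and PRKAA2 have their lowest value in CON replicate 3.

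The catalytic subunit genes varied most among the control libraries. PRKAA1, which encodes the alpha1 subunit, lies on chromosome 16 from 33617598 to 33649675; the build of all coordinates given here was not given in the sources used. Its FPKM was 12.2, 8.18 and 3.90 in CON, 8.999, 7.34 and 7.83 in LOW and 11.1, 10.6 and 7.88 in HIGH. The CON libraries spanned the values of both other groups, with a mean of 8.08 ± 4.14 (SD, n = 3) against 8.06 ± 0.851 in LOW and 9.83 ± 1.71 in HIGH (n = 3 each). The log2 fold change of HIGH over CON was 0.41 with a 95% interval from -0.38 to 1.19, wide enough to hold a doubling. Without CON replicate 3 it was -0.040, so the direction depended on that library.

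PRKAA2, the gene of the alpha2 subunit, lies on chromosome 1 from 30977088 to 31014532 and was the least abundant of the 10. Its FPKM was 3.38, 3.01 and 1.61 in CON, 3.22, 2.93 and 3.32 in LOW and 2.91, 2.91 and 2.74 in HIGH. The HIGH libraries all lay below the LOW libraries, by a log2 difference of only -0.14 (95% interval -0.70 to 0.42, adjusted p = 0.848), and CON covered both. Of the summed alpha subunit FPKM, PRKAA1 made up between 70.2% and 79.1% in the 9 libraries, and its mean share was 74.0% ± 3.85 in CON, 71.8% ± 1.72 in LOW and 77.2% ± 2.68 in HIGH (SD, n = 3 each). Every HIGH share was above every LOW share (74.2% against 73.6% at the nearest), and CON overlapped both.

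The regulatory subunit genes were steadier. PRKAB1 encodes the beta1 subunit, on chromosome 17 from 55304737 to 55322592. It read 13.6, 13.2 and 15.4 in CON, 13.03, 14.5 and 12.9 in LOW and 13.5, 12.2 and 12.8 in HIGH. The groups overlapped in every comparison. Its highest library was 1.26 times its lowest, the narrowest range of the 10 genes, and its 95% intervals reached no further than -0.39 and 0.20 on the log2 scale. A 2-fold difference in either direction therefore lay outside all 3 of its intervals.

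PRKAG1 encodes the gamma1 subunit, on chromosome 3 from 137026540 to 137035155. FPKM was 13.5, 13.5 and 13.6 in CON, 14.6, 15.6 and 14.8 in LOW and 13.6, 11.01 and 14.8 in HIGH. All LOW libraries were above all CON libraries, a difference of 0.15 on the log2 scale (SE 0.13, adjusted p = 1.00 in limma), while HIGH spread over both. PRKAG1 was the only gene of the 10 whose CON and LOW libraries did not overlap, and 6.16% of all genes did not overlap there. Without HIGH replicate 2 its difference of HIGH from CON turned from -0.053 to 0.067.

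Most AMPK gamma FPKM was assigned to other genes. PRKAG2, the gamma2 gene, had a mean FPKM of 104 and PRKAG3, the gamma3 gene, 18.2, so PRKAG1 supplied between 7.82% and 11.5% of the summed gamma FPKM in the 9 libraries. The PRKAG2 row lies inside that of RHEB, through a RHEB transcript of 146 kb that was above 0.377 FPKM only in CON replicate 1. Reads may be split between the genes, so the PRKAG2 level and this share are uncertain, mainly in that library. PRKAB2, the beta2 gene, had a mean of 8.68, and PRKAB1 supplied between 57.7% and 67.9% of the beta subunit FPKM. PRKAG3 was the subunit gene with the clearest separation: its FPKM was 17.2, 17.1 and 18.1 in CON, 15.1, 17.5 and 16.6 in LOW and 20.5, 21.2 and 20.5 in HIGH. All HIGH libraries lay above the others, by 0.25 over CON and 0.34 over LOW on the log2 scale, with limma adjusted p of 0.659 and 0.613.

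STK11, which encodes LKB1, had its 3 highest values in the 3 HIGH libraries. It lies on chromosome 5 from 41052615 to 41066935, within the row of an assembled locus of mean FPKM 1.15, so a small part of its reads may belong there. Its FPKM was 6.26, 6.17 and 7.45 in CON, 5.76, 6.43 and 6.37 in LOW and 8.39, 8.32 and 8.01 in HIGH. Every HIGH library exceeded every CON and LOW library, whereas CON and LOW overlapped. Means were 6.63 ± 0.716, 6.19 ± 0.374 and 8.24 ± 0.204 (SD, n = 3 each). HIGH exceeded CON 1.24-fold (95% interval 1.02 to 1.51, limma unadjusted p 0.0328, adjusted p 0.659) and LOW 1.33-fold (1.09 to 1.62, unadjusted p 0.00954, adjusted p 0.613). These differences did not pass the adjustment over all genes. Leaving out each library in turn, and the 3 libraries that stood apart together, kept the log2 difference from CON between 0.23 and 0.40 and that from LOW between 0.36 and 0.44. Leaving out those 3 together left HIGH replicate 3 as the only HIGH library, at 0.23 over CON and 0.37 over LOW. STK11 was the only gene of the 10 whose HIGH and CON libraries did not overlap, where 9.32% of all genes did not.

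The gene totals of TSC1 and TSC2 were higher in the first 2 HIGH libraries than in HIGH replicate 3. TSC1 encodes hamartin, which stabilises TSC2, and lies on chromosome 3 from 3892691 to 3934825. Its FPKM was 20.5, 14.3 and 14.0 in CON, 13.9, 14.2 and 15.0 in LOW and 25.3, 20.3 and 14.6 in HIGH. HIGH replicate 3 fell within the LOW range and CON replicate 1 within the HIGH range. These totals include a short assembled transcript, at 8.03 in CON replicate 1, 6.32 in LOW replicate 3, 9.91 in HIGH replicate 1 and 8.30 in HIGH replicate 2. The annotated transcript TSC1-201 alone was at 15.9, 12.2 and 14.0 in HIGH against 12.6, 13.5 and 12.6 in CON, with overlap. The log2 fold change was 0.29 for HIGH over CON and 0.45 for HIGH over LOW (SE 0.21 each, adjusted p 0.659 and 0.640). Without HIGH replicate 1 these were 0.10 and 0.26, and without CON replicate 3 the first was 0.19. Without the 3 libraries that stood apart, which leaves only HIGH replicate 3 in HIGH, they were 0.043 and 0.022.

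TSC2 encodes tuberin, the part of the complex that acts on RHEB and that AMPK phosphorylates. It lies on chromosome 24 from 1575200 to 1606649 and shares 20.1 kb with the row of NTHL1, which had a mean FPKM of 1.65, so its level is uncertain to that extent. Its FPKM was 4.03, 3.76 and 3.40 in CON, 3.45, 3.39 and 3.25 in LOW and 8.25, 5.59 and 3.94 in HIGH. HIGH lay wholly above LOW, but HIGH replicate 3 was below CON replicate 1. TSC2 had the largest fitted differences of the 10 genes, 1.51-fold over CON (95% interval 1.04 to 2.18, limma unadjusted p 0.0327, adjusted p 0.659) and 1.67-fold over LOW (1.15 to 2.41, unadjusted p 0.0119, adjusted p 0.613). The size rested on HIGH replicate 1: without it the log2 fold changes were 0.33 and 0.47 in place of 0.59 and 0.74. Without the 3 libraries that stood apart they were 0.13 and 0.22. TSC1 was 4.32 ± 0.675 times as abundant as TSC2 in CON, 4.27 ± 0.302 times in LOW and 3.46 ± 0.342 times in HIGH (SD, n = 3 each), and each HIGH ratio (3.07 to 3.70) was below every CON and LOW ratio (3.79 to 5.08). The TSC1 totals in these ratios include its short assembled transcript.

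RHEB, the GTPase that activates mTORC1, ran the other way. Its row covers chromosome 4 from 113404540 to 113550802. FPKM was 45.4, 42.1 and 67.8 in CON, 56.0, 46.1 and 48.7 in LOW and 34.1, 38.5 and 52.0 in HIGH. The 2 lowest values were HIGH libraries and the highest was CON replicate 3, but the groups overlapped in every comparison. The log2 fold change was -0.31 for HIGH over CON and -0.29 for HIGH over LOW (SE 0.21 each, adjusted p 0.659 and 0.668). Against CON it was -0.48 without HIGH replicate 3, -0.18 without HIGH replicate 1, -0.099 without CON replicate 3 and -0.042 without the 3 libraries that stood apart. Against LOW it was -0.47 without HIGH replicate 3, -0.17 without HIGH replicate 1 and 0.051 without those 3 libraries. The row of PRKAG2 lies inside that of RHEB, with 40.7 kb shared, and the counting was not stated to use strand. Among the RHEB transcripts only a form of 146 kb spans the PRKAG2 row. It was at 29.8 in CON replicate 1 and at most 0.377 elsewhere. Reads of the region may therefore be split between the genes, mainly in CON replicate 1 as the transcripts were assigned, and the levels of both are uncertain to that extent.

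MTOR and RPTOR, the kinase and the scaffold of mTORC1, had their highest value in HIGH replicate 1, as the TSC gene totals did. MTOR lies on chromosome 12 from 40533385 to 40657651 and shares 122 kb with the row of ANGPTL7, which had a mean FPKM of 0.622. MTOR FPKM was 12.1, 10.0 and 7.09 in CON, 9.50, 9.21 and 8.17 in LOW and 17.1, 13.2 and 10.3 in HIGH. HIGH lay above LOW in all libraries and overlapped CON. The fold of HIGH over LOW was 1.48 (95% interval 1.03 to 2.11, limma unadjusted p 0.0348, adjusted p 0.640) and that of HIGH over CON 1.39 (0.973 to 1.98, adjusted p 0.659). Without the 3 libraries that stood apart the log2 fold changes were 0.20 and 0.29 in place of 0.56 and 0.47. Against CON it was 0.26 without CON replicate 3 and 0.29 without HIGH replicate 1.

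RPTOR lies on chromosome 11 from 50830224 to 51148991, the longest span of the 10 genes at 319 kb. Its FPKM was 3.50, 3.48 and 2.68 in CON, 2.81, 3.46 and 2.92 in LOW and 5.11, 4.27 and 3.23 in HIGH. HIGH replicate 3 fell within both other groups, and the log2 fold change of HIGH was 0.36 over CON and 0.43 over LOW (SE 0.20 each, adjusted p 0.659 and 0.640). Without HIGH replicate 1 these were 0.21 and 0.27, without CON replicate 3 the first was 0.23, and without the 3 libraries that stood apart they were 0.076 and 0.079. MTOR stayed 3.00 ± 0.417, 2.95 ± 0.386 and 3.21 ± 0.120 times as abundant as RPTOR in CON, LOW and HIGH. RHEB over MTOR was 5.83 ± 3.23, 5.62 ± 0.530 and 3.31 ± 1.56 (SD, n = 3 each), with overlap between CON and both other groups and HIGH replicate 3 (5.03) just above the lowest LOW ratio (5.01).

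Set side by side, the 3 comparisons differed in how the 10 genes lay around zero. In LOW against CON, 3 of 10 genes were fitted higher, as 51.6% of all genes were, with a median log2 fold change of -0.062 against 0.0087 over all genes, and 0 of the 10 genes reached an unadjusted p under 0.05, as 1.95% of all genes did. In HIGH against CON, 7 of 10 were fitted higher, as 56.3% of all genes were, with a median of 0.30 against 0.070 over all genes. Here TSC2 and STK11 reached an unadjusted p under 0.05, 2 of 10 where 6.58% of all genes did. In HIGH against LOW, 6 of 10 were fitted higher, as 55.3% of all genes were, with a median of 0.34 against 0.055 over all genes. Here 3 of 10 genes (STK11, TSC2 and MTOR) reached it where 7.56% of all genes did, and 4 of 10 did not overlap between groups where 18.7% of all genes did not: STK11, TSC2 and MTOR higher and PRKAA2 lower in HIGH. These comparisons share libraries in pairs, so they are not independent. Without the 3 libraries that stood apart, with HIGH replicate 3 alone in HIGH, the medians were 0.13 for HIGH against CON and 0.037 for HIGH against LOW.

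**Figure D2:**
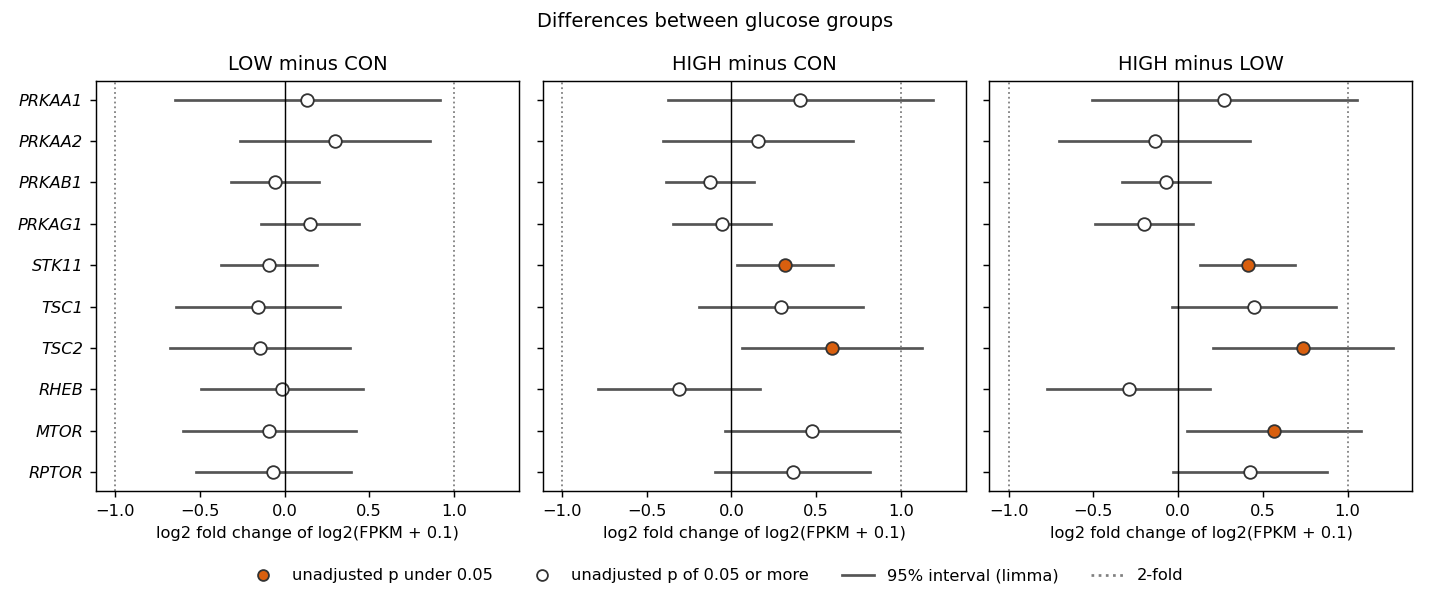
Fitted log2 fold change of log2(FPKM + 0.1) (horizontal axes) for the 10 genes in the 3 comparisons of glucose groups; points are limma estimates, lines their 95% intervals, filled points have an unadjusted p under 0.05 and dotted lines mark a 2-fold difference. In LOW minus CON all 10 intervals cross zero, and in HIGH minus LOW those of STK11 (0.13 to 0.69), TSC2 (0.20 to 1.27) and MTOR (0.050 to 1.08) do not; none of the adjusted p-values is under 0.05.

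TXNIP, a gene known to follow glucose supply, gives a scale for these differences. Its FPKM was 68.5, 88.7 and 105 in CON, 213, 226 and 233 in LOW and 179, 205 and 217 in HIGH, and both glucose groups lay above every CON library. It was fitted 2.60-fold higher in LOW (95% interval 2.0 to 3.37, limma unadjusted p 1.44e-05) and 2.32-fold higher in HIGH (1.79 to 3.00), and its adjusted p was 0.123 and 0.179, which did not pass either. In LOW against CON, none of the 10 energy-sensing genes had a fitted fold above 1.23, and the interval of each lay below the lower bound of TXNIP.

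Several of the 10 genes varied with measures of the library. PRKAA1 was highest in the 3 libraries with the most genes detected (CON replicate 1, HIGH replicates 1 and 2, at 10.6 to 12.2) and lowest in CON replicate 3, which had the fewest genes detected (3.90). TSC1, TSC2, MTOR and RPTOR all had their highest value in HIGH replicate 1, where small RNA genes took the least of the FPKM, and RHEB its lowest. MTOR and TSC1 had the same 3 libraries at the top as PRKAA1. The median long gene (span over 66.9 kb) minus the median short gene (under 9.99 kb), against the average library, was 0.29 in CON replicate 1, 0.33 in HIGH replicate 1 and -0.57 in CON replicate 3 on the log2 scale. STK11 was at 6.26 in CON replicate 1, which had the most genes detected. It was at 8.39 and 8.32 in HIGH replicates 1 and 2, where small RNA genes took 30.3% and 50.7%, and at 8.01 in HIGH replicate 3, where they took 68.2%. The part of these library measures in the differences between groups was not tested.

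**Figure D3:**
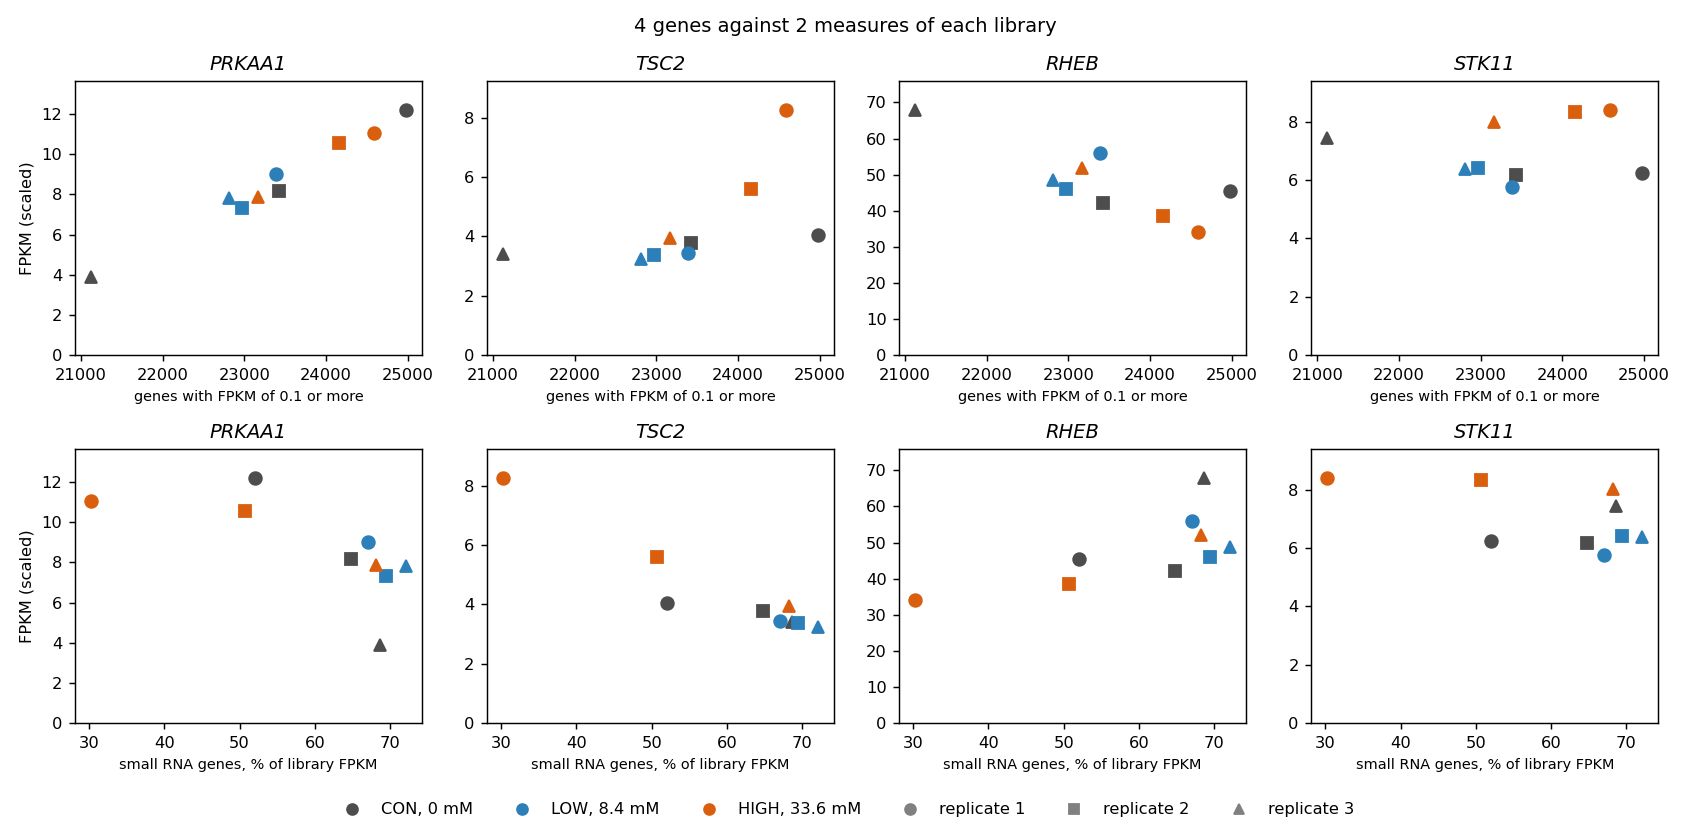
Scaled FPKM of PRKAA1, TSC2, RHEB and STK11 (vertical axes, from 0) against the number of genes with FPKM of 0.1 or more (upper row) and the percentage of library FPKM in small RNA genes (lower row); each point is 1 of 9 libraries, coloured by group and shaped by replicate. PRKAA1 runs from 3.90 in the library with 21121 genes to 12.2 in that with 24981, TSC2 is highest (8.25) where small RNA takes 30.3%, and the 3 HIGH values of STK11 sit at 8.01 to 8.39 in libraries with 23163 to 24582 genes and a small RNA share of 30.3% to 68.2%.

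Expression of MTOR, RPTOR and both TSC genes was positively correlated across libraries, with less evidence by rank. Over the 45 pairs of genes, 23 Pearson correlations of log2 expression over the 9 libraries were positive and 22 negative. Of these, 9 had an adjusted permutation p under 0.05. The share of other gene pairs that would reach it was not computed, so this count has no background. The strongest were MTOR with RPTOR (Pearson r = 0.93, exact permutation adjusted p = 0.00546; Spearman rho = 0.88, exact permutation adjusted p = 0.0461; r = 0.80 without the 2 libraries farthest from the MTOR median) and RHEB with RPTOR (r = -0.93, exact permutation adjusted p = 0.00546; rho = -0.97, exact permutation adjusted p = 0.00744; r = -0.90 without the 2 farthest). For rho, the exact permutation adjusted p was 0.00794 for TSC2 with MTOR and 0.0808 for TSC1 with RPTOR. It was 0.0969 for TSC2 with RPTOR, 0.115 for TSC1 with MTOR and 0.166 for TSC1 with TSC2. Without the 2 farthest libraries, r of these pairs ran from 0.61 (TSC2 with RPTOR) to 0.92 (TSC1 with TSC2). PRKAA1 with PRKAA2 had r = 0.85 (exact permutation adjusted p = 0.0913), but rho was 0.40 and r became -0.14 without the 2 farthest libraries, so that relation rested on those libraries. Libraries share depth and composition, and 3 in each group are too few for a correlation within groups. The permutations exchanged all 9 libraries across groups. Their p-values therefore do not separate a relation between genes from differences between groups or libraries.

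Beyond the 10 genes, the gene most alike by r over 9 libraries among 9500 candidates was DYNC1LI2 for PRKAA1 (0.997), CHD9 for PRKAA2 (0.997), AP1AR for PRKAB1 (0.93) and SLC30A1 for PRKAG1 (0.91). For TSC2 it was MYO18A (0.99), for RHEB NUP85 (0.97), for MTOR VDR (0.99) and for RPTOR ACIN1 (0.98). STK11 was most like PRKAG3 (0.96), the AMPK gamma3 gene described above. With so many candidates a high r is found for most genes, and these values are a description only.

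The deposited transcripts resolved the 10 genes into 18 transcripts, of which 17 were tested and 0 were called. The same rule called 0.0246% of all transcripts in LOW against CON, 0.0246% in HIGH against CON and 0.0344% in HIGH against LOW. STK11, TSC2, MTOR and RPTOR each had 1 transcript, so their gene values are those of that transcript. The other 6 genes had several, and the share of each transcript differed widely between libraries in some of them.

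PRKAA1 was assigned to PRKAA1-202 in most libraries and to PRKAA1-201 in LOW replicate 3, where PRKAA1-202 was listed at 0 and PRKAA1-201 at 7.37. PRKAA1-201 took 93.9% of the gene there and at most 20.3% elsewhere, although both transcripts have the same start and end. The PRKAA1 row also includes the assembled antisense transcript PRKAA1-AS1, which held 5.85% of the mean. PRKAA2 behaved likewise: PRKAA2-202 was at 2.05 in CON replicate 1 and 2.53 in LOW replicate 1 and was listed at 0 in the other 7 libraries. The gene totals did not show these switches.

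TSC1 had a short assembled transcript at its higher-coordinate end (chromosome 3, 3923497 to 3934825) that reached 8.03 in CON replicate 1, 6.32 in LOW replicate 3, 9.91 in HIGH replicate 1 and 8.30 in HIGH replicate 2, and at most 1.17 in the other 5 libraries. TSC1-201, the annotated transcript, was at 12.6, 13.5 and 12.6 in CON, 13.2, 12.8 and 8.69 in LOW and 15.9, 12.2 and 14.0 in HIGH. The 3 highest TSC1 totals were in libraries where the assembled transcript was high. RHEB was assigned to an assembled transcript of 52.3 kb in 8 libraries (26.6 to 45.6) and to another of 146 kb, which spans the PRKAG2 row, in CON replicate 1 (29.8, against at most 0.377 elsewhere). RHEB-201, the annotated form, ranged from 4.74 to 21.8 with overlap between all groups.

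PRKAG1 was mostly PRKAG1-201, at 12.1, 12.8 and 12.4 in CON, 13.9, 14.7 and 13.8 in LOW and 12.9, 9.39 and 10.5 in HIGH. All HIGH libraries were below all LOW libraries, a log2 difference of -0.38 (SE 0.13, limma unadjusted p 0.0197, adjusted p 0.680). The shorter PRKAG1-202 was at 4.17 in HIGH replicate 3 and between 0.590 and 1.76 in the other libraries, which filled the gene total of that library. PRKAB1 kept its PRKAB1-201 share between 82.0% and 85.3% in all 9 libraries, the steadiest of the 6 genes.

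**Figure D4:**
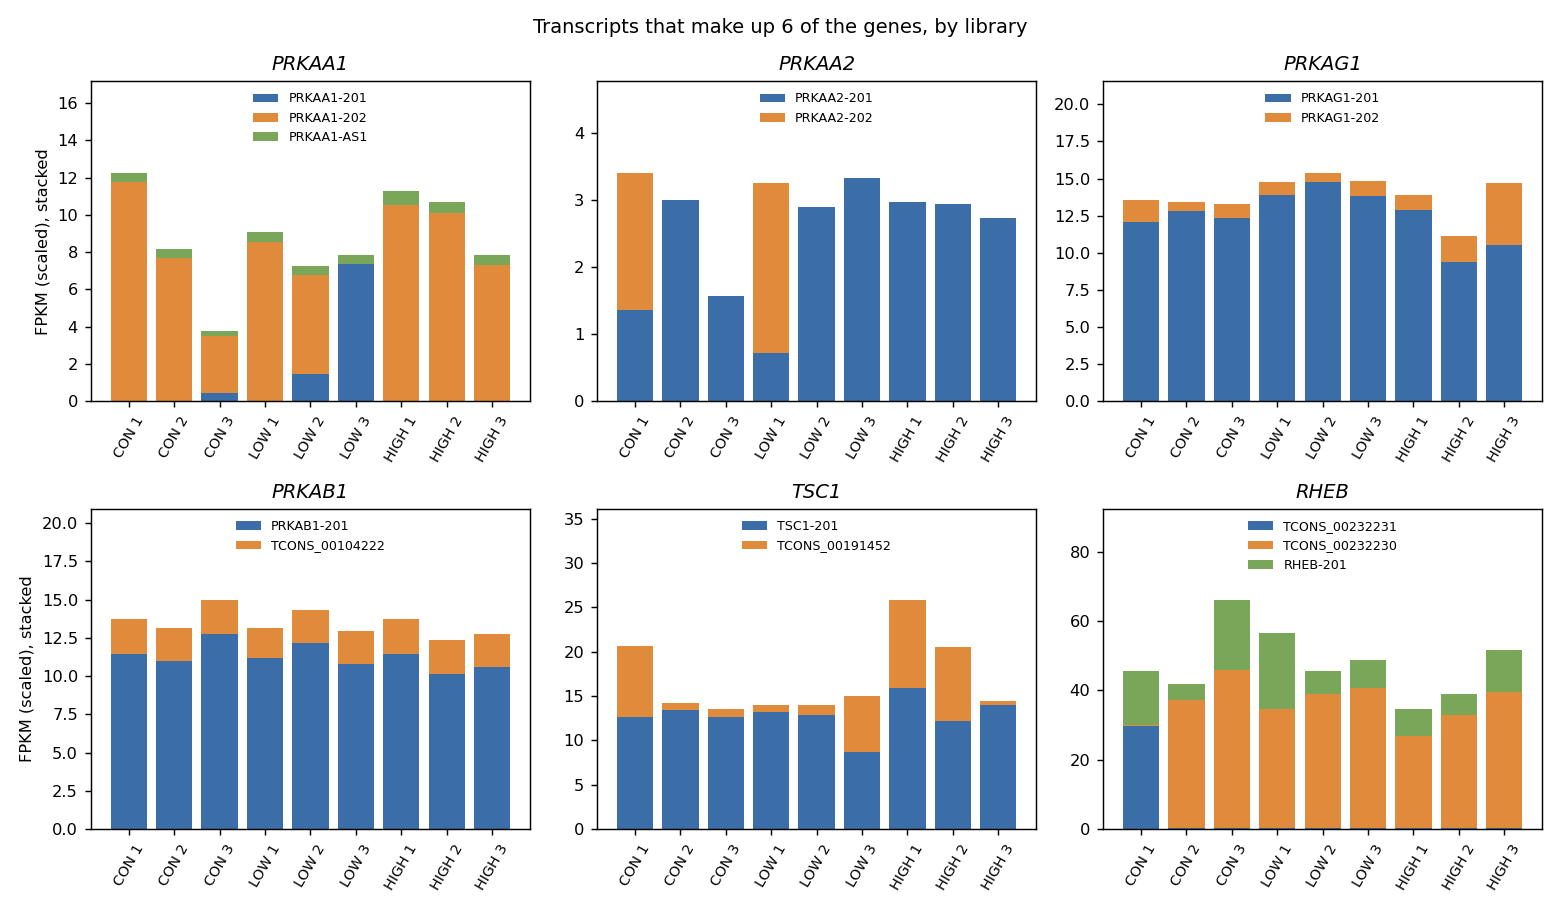
Scaled FPKM of each deposited transcript (stacked bars, from 0) of the 6 genes with several transcripts in the 9 libraries. The main transcript changes in LOW replicate 3 for PRKAA1 (PRKAA1-201 at 7.37) and in CON replicate 1 for RHEB (29.8 from the 146 kb form), and the assembled TSC1 transcript is above 6 in 4 libraries of all 3 groups.

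The wider pathway was followed with a list of 102 further genes, of which 86 were in the table and tested; the other 16, among them AKT1, RPS6 and RPS6KB1, were not analysed here. As with the 10 genes, 0 of 86 were called in any comparison, at the same 0.00783% of all genes in each. At an unadjusted p under 0.05 there were 2 genes in LOW against CON, 7 in HIGH against CON and 13 in HIGH against LOW, all fitted higher in the group with more glucose. Of all genes, 0.999%, 4.02% and 5.11% reached it in the higher direction and 0.948%, 2.56% and 2.44% in the lower. Groups did not overlap for 6, 9 and 21 of the 86 genes (6.98%, 10.5% and 24.4%), where 6.16%, 9.32% and 18.7% of all genes did not. The genes named below include those picked for the smallest unadjusted p in limma, so a lack of overlap in them is a description only. Median log2 fold changes over the 86 genes were -0.025, 0.0063 and 0.0094.

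Among the targets of AMPK, direct or through its products, PFKFB3, which makes the activator of glycolysis fructose 2,6-bisphosphate, was the most graded. Its FPKM was 4.30, 4.36 and 5.68 in CON, 8.72, 7.30 and 7.07 in LOW and 12.9, 10.4 and 9.97 in HIGH, with no overlap between any groups. The log2 fold change was 0.68 for LOW and 1.20 for HIGH over CON (limma unadjusted p 0.00248 and 4.20e-05, adjusted p 1.00 and 0.179). ULK1, the autophagy kinase that AMPK activates and mTORC1 inhibits, was at 5.26, 5.42 and 3.84 in CON, 3.87, 4.26 and 3.33 in LOW and 11.8, 9.38 and 6.47 in HIGH. HIGH was above all other libraries, by 0.89 over CON and 1.21 over LOW on the log2 scale (adjusted p 0.659 and 0.589), with its highest value in HIGH replicate 1. CPT1A, the gatekeeper of fatty acid entry into mitochondria, was at 15.0, 14.5 and 14.9 in CON, against 17.0 to 17.7 in LOW and 16.2 to 18.1 in HIGH, all above CON (log2 fold change of LOW 0.23, adjusted p 1.00).

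Upstream of AMPK, STRADA and CAB39 encode the partners that hold LKB1 active. STRADA FPKM was 4.16, 3.45 and 3.06 in CON, 3.26, 4.01 and 3.17 in LOW and 4.90, 4.23 and 4.59 in HIGH, higher in all HIGH libraries, as STK11 was, by 0.36 over CON and 0.39 over LOW (adjusted p 0.659 and 0.640), but its row also holds an antisense transcript. CAB39 was far more abundant, at a mean of 31.4, and did not share that pattern (log2 fold change of HIGH over CON -0.19, adjusted p 0.659). CAMKK2, the calcium-dependent kinase of AMPK, had a mean of 28.4 with 0.48 for HIGH over CON (adjusted p 0.659), and CAMKK1 had a mean of 2.99, with LOW below CON in every library (log2 fold change -0.30, adjusted p 1.00).

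Around mTORC1, MLST8, a core subunit of both MTOR complexes, was low in this table at 0.418 to 1.19 FPKM, between 0.0245 and 0.167 times MTOR. AKT1S1, which encodes the inhibitory subunit PRAS40, had a mean of 3.53, and TBC1D7, the third subunit of the TSC complex, of 11.1. TBC1D7 was lower in all HIGH libraries (9.52 to 10.9) than in all CON libraries (11.3 to 12.6), by -0.22 on the log2 scale (adjusted p 0.659), opposite in sign to TSC1 and TSC2. RICTOR, the scaffold of the other MTOR complex, was fitted 0.29 higher in LOW than CON (adjusted p 1.00). RRAGD, a Rag GTPase, was fitted -1.14 in LOW against CON (SE 0.51, adjusted p 1.00), where LOW read 0.310, 0.259 and 1.24 and overlapped CON (0.830 to 1.71). LAMTOR1, the Ragulator anchor, was fitted -0.58 in HIGH against LOW with overlap (adjusted p 0.641).

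The inhibitory inputs were mixed in direction. SESN1, a p53-responsive sestrin that restrains mTORC1, was at 3.54, 3.43 and 4.14 in CON, 3.65, 3.88 and 3.47 in LOW and 3.19, 2.85 and 2.83 in HIGH. All HIGH libraries were lowest, by -0.31 against CON and -0.30 against LOW (adjusted p 0.659 and 0.640). SESN2 and SESN3 had means of 3.03 and 15.8 with HIGH overlapping both other groups. NPRL3 of the GATOR1 complex was fitted 0.48 higher in HIGH than CON without overlap (adjusted p 0.659), KPTN of KICSTOR -0.37 with overlap (adjusted p 0.659), and BMT2, the methionine-linked inhibitor, -0.25 in HIGH against LOW without overlap (adjusted p 0.642). DDIT4, which acts through the TSC complex, reached 14.1 in HIGH replicate 1 and 4.63 to 9.17 in the others (HIGH over CON 0.77, adjusted p 0.659). PDPK1, the kinase that activates AKT, was lower in every LOW than in every CON library (-0.25, adjusted p 1.00).

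Downstream, EIF4EBP1, the translation repressor that mTORC1 phosphorylates, was abundant (mean 95.4) and had overlapping groups, with a log2 fold change of -0.19 in HIGH against CON (adjusted p 0.710). EIF4G1, the scaffold of cap-dependent translation, was at 21.4, 15.7 and 13.01 in CON, 14.8, 12.5 and 12.4 in LOW and 41.3, 27.0 and 17.3 in HIGH. It was fitted 1.02 higher in HIGH than LOW without overlap (SE 0.29, adjusted p 0.613) and had its highest library in HIGH replicate 1, as TSC1, TSC2, MTOR and RPTOR did.

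**Figure D5:**
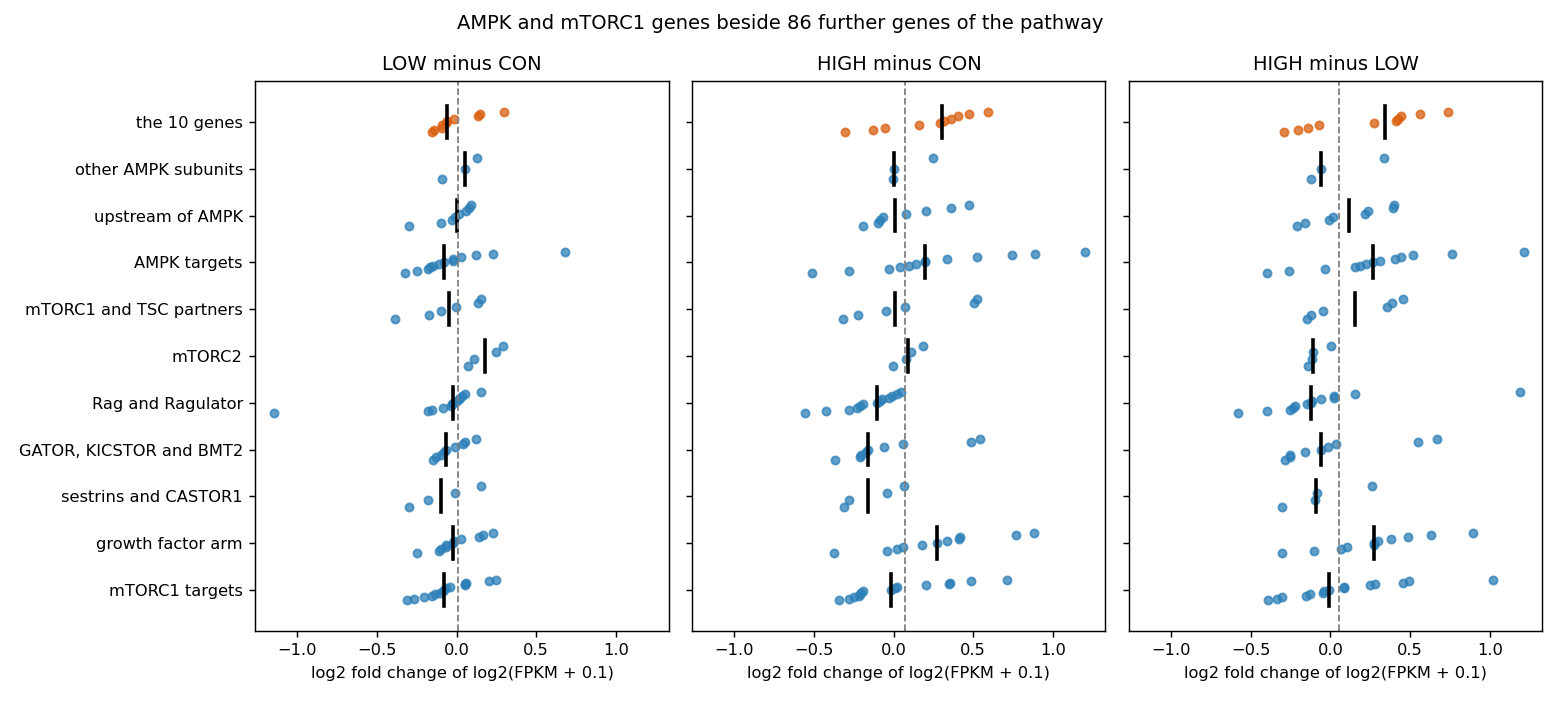
Fitted log2 fold change of log2(FPKM + 0.1) (horizontal axes) of the 10 genes (orange) and of 86 further genes in 10 functional groups (blue); each point is a gene, black bars are group medians and the dashed line is the median of all tested genes (0.0087, 0.070 and 0.055). The 10 genes have medians of -0.062, 0.30 and 0.34, and the 86 further genes together -0.025, 0.0063 and 0.0094.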

How the data were processed

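RNA from 9 libraries, 3 each of CON, LOW and HIGH, was analysed. The authors aligned reads with Hisat2, assembled transcripts with Stringtie and deposited FPKM per gene and per transcript; the submitters' processing notes also name TopHat, TopHat2, STAR 2.5.1b and HTSeq 0.6.0. The genome build was not given in the sources used here. The gene counts the authors deposited were treated as estimated counts, since they follow FPKM times genomic span times 1 factor per library (within 3% for 58.3% to 60.7% of genes) and sum to far more than the sequenced fragments; they entered only edgeR and DESeq2 alternatives, although the methods of the study name DESeq2. Fragments per FPKM come from those factors, and intervals cover the spread between libraries only. Transcript rows of Ensembl genes without a symbol were on another scale and were put back on the gene scale.

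Values of log2(FPKM + 0.1) were tested with limma 3.58.1 in R 4.3.3. The spread was trended on mean expression, with the 3 groups in 1 model and Benjamini-Hochberg adjustment over all features, so fold changes are on the log2(FPKM + 0.1) scale and understate those of low genes. A call required more than a 2-fold difference (log2 beyond 1) at an adjusted p below 0.05. Features with FPKM below 0.1 in all but 2 or fewer libraries were left out. The procedure was tested on simulated data. Alternatives were other scalings, filters and pseudocounts, 2 groups alone, a replicate block, edgeR 4.0.16, DESeq2 1.42.0 and leaving out libraries. Summing or choosing rows changed nothing, since each symbol had 1 row.

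Members and gene lists were chosen with earlier results of these data known. Named beyond the 10 genes were TXNIP, fixed subunits and partners, and the 3 pathway genes with the smallest unadjusted p in each direction of each comparison. Transcripts are described for the 10 genes, and likeness was Pearson r among genes with mean FPKM of 1 or more. The gene most like TSC1 is not reported here.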

Additional observations from a re-analysis of the deposited data

How the results depend on the processing

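Across 19 alternatives, 570 refits of the 10 genes in 3 comparisons gave 0 calls, and 553 kept the direction. The 17 that turned touched 11 results, and 16 of them left out libraries. With edgeR, RHEB in LOW against CON was 0.012. Leaving out libraries, log2 fold changes in LOW against CON ran from -0.31 to 0.50 for PRKAA1, -0.014 to 0.50 for PRKAA2, -0.11 to 0.0084 for PRKAB1, -0.25 to 0.023 for TSC1, -0.15 to 0.20 for RHEB and -0.30 to 0.082 for MTOR. In HIGH against CON they ran from -0.040 to 0.77 for PRKAA1, -0.16 to 0.35 for PRKAA2 and -0.14 to 0.12 for PRKAG1. In HIGH against LOW they ran from -0.028 to 0.42 for PRKAA1 and -0.47 to 0.051 for RHEB. The median over the 10 genes ran from 0.075 (without CON replicate 3) to 0.42 in HIGH against CON and from 0.037 (without CON replicate 1 and HIGH replicates 1 and 2, an alternative chosen after seeing the data, as was a span of 300 bases or more) to 0.42 in HIGH against LOW. The causes were not tested. DESeq2 on the estimated counts gave STK11 and TSC2 an adjusted p of 0.0475 and 0.0385 in HIGH against LOW, at log2 fold changes of 0.37 and 0.77, where 2.92% of all genes were under 0.05; edgeR gave 0.719 and 0.715. DESeq2 also called 1 pathway gene (PFKFB3) in HIGH against CON and 2 (ULK1 and EIF4G1) in HIGH against LOW. Without the limit on fold, its adjusted p was under 0.05 for 3 pathway genes in LOW against CON (PFKFB3 0.0133, CAMKK1 0.00558 and TBC1D4 0.00343, the last named after its values were seen), 4 in HIGH against CON (PFKFB3, ULK1 0.0125, NPRL3 0.0448 and SESN1 0.00848) and 5 in HIGH against LOW (ULK1, EIF4G1, PRKAG3 0.0251, NPRL3 0.00427 and SESN1 0.0144), where 1.1%, 1.85% and 2.92% of all genes were.

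All genes called, 2 in each comparison, became 296, 302 and 509 with DESeq2 (LOW against CON, HIGH against CON, HIGH against LOW). With edgeR 0 were called in HIGH against CON and 0 in HIGH against LOW, where 1427 and 1746 had an unadjusted p under 0.05. Requiring FPKM of 1 gave 1 in LOW against CON and 1 in HIGH against LOW, and fitting 2 groups only gave 1 in HIGH against CON and 5 in HIGH against LOW. Leaving out libraries gave 0 (without LOW replicate 3) to 5, 2 to 9 and 1 to 10, the last 2 highest counts without CON replicate 1 and HIGH replicates 1 and 2; CON replicates 1 and 3, LOW replicate 1 and HIGH replicate 3 also moved such counts by over 1.5 times. The labels do not say whether equal replicate numbers pair the samples. Correlations of deviations between libraries of equal replicate number ran from -0.027 to 0.42. Those of CON with HIGH were 0.41 in replicate 1, -0.027 in replicate 2 and 0.42 in replicate 3. A pairing was neither shown nor excluded. With the replicate block 4 genes were called in HIGH against CON, and the 10 genes had 0 calls, with 0, 3 and 5 at an unadjusted p under 0.05 against 0, 2 and 3. With 3 libraries per group the standard errors of the 10 genes were 0.12 to 0.35, and the widest interval, that of PRKAA1, ran from -0.38 to 1.19 in HIGH against CON.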

Other observations

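The AMPK subunit genes were not expressed in equal amounts. Summed over genes of a kind, gamma subunit FPKM was mostly that of PRKAG2, at 117, 107 and 87.4 in CON, 109, 107 and 105 in LOW and 102, 109 and 97.0 in HIGH, with overlap between all groups. Its row lies inside that of RHEB, so this level is uncertain, mainly in CON replicate 1, where the RHEB transcript that spans it was high. PRKAB2 was at 9.23, 8.80 and 7.27 in CON, 9.56, 9.11 and 8.89 in LOW and 7.98, 8.88 and 8.42 in HIGH, and all HIGH values were below all LOW values by only -0.12 on the log2 scale (limma adjusted p 0.737).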
